A study of Rattus norvegicus with 9 samples.

Results

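The genes described here build, organise or crosslink the extracellular matrix and the scar that forms after brain injury: fibrillar and basement membrane collagens, laminins, small leucine-rich proteoglycans, lecticans and tenascins, fibronectin and microfibril proteins, matricellular proteins, and enzymes that fold or crosslink collagen. The list held 45 genes, and a gene was taken as measured where the transcript accession of a non-control probe mapped to its symbol. This gave 42 probes for 34 genes. Of these, 33 genes passed the filter on dim probes, out of 22783 features tested in all, and Postn (periostin, a matricellular protein of healing tissue) had a probe that did not pass. No probe was named for Col5a2, Col4a2, Col6a1, Col6a3, Col12a1, Lama2, Lamb1, Nid1, Hspg2, Fbln2 and Lox.

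RNA came from brain of male Sprague Dawley rats and was hybridised to 9 one-colour Agilent arrays, 3 in each of 3 groups. The first group had a sham operation, and the labels describe no injection for it. The second had middle cerebral artery occlusion (MCAO), a rat model of ischemic stroke, followed by reperfusion, and received saline as vehicle. The third had the same occlusion and reperfusion and received salidroside, a phenylethanoid glycoside of Rhodiola plants, at 50 mg per kg body weight. Saline and salidroside were given into the peritoneum once daily for 6 days, the first injection 1 h after reperfusion. Ischemic tissue was dissected, so each array reads a mixture of cells, and more cells of a type cannot be told apart from more RNA per cell. The labels name 3 animals per group but do not say which animal gave which array, so p-values measure the spread between these arrays.

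In healthy brain, fibrillar collagens, fibronectin and the small leucine-rich proteoglycans are made mostly by fibroblasts of the meninges and of vessel walls. The spaces between neurons hold a different matrix of hyaluronan, lecticans and tenascins, and laminins and collagen IV form the basement membrane of vessels. After a stroke, perivascular fibroblasts, reactive astrocytes and macrophages build a scar whose core is rich in collagen and fibronectin, a response in which transforming growth factor beta is a known driver.

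The sequence just upstream of the transcription start is shown for the 4 members with the smallest p-values in vehicle against sham among those with an entry in the RefSeq promoter table (build GRCr8), Fbn1, Ogn, Sparc and Fmod, and for Bcan, the member with an entry whose change was closest to 0. Each line gives 250 bases, 5′ to 3′ on the strand of the gene and ending at the base before the start. They lie at chr3:133203391-133203640 (minus strand), chr17:15258996-15259245 (minus strand), chr10:40038817-40039066 (minus strand), chr13:48045317-48045566 (plus strand) and chr2:175765315-175765564 (minus strand). Capitals mark matches, on either strand, to 5 short motifs, which are TATAAA for the TATA box, CCAAT for the CCAAT box, GGGCGG for the GC box, TGANTCA for the AP-1 site and CAGACA for the CAGA box bound by Smad proteins. No motif contains another.
Fbn1: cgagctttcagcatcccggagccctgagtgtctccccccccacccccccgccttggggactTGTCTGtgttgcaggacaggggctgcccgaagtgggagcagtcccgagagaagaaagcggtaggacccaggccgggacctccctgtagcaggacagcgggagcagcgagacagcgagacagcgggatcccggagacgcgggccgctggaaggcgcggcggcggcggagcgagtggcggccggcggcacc
Ogn: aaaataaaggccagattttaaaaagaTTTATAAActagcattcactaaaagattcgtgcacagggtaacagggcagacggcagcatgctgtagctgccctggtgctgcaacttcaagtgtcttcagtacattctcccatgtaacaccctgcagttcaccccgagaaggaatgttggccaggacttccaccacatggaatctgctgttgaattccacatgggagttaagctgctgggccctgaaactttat
Sparc: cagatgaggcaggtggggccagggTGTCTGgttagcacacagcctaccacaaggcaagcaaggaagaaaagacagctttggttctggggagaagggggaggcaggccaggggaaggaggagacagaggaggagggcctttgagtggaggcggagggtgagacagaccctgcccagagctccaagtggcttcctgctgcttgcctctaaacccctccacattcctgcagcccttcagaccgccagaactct
Fmod: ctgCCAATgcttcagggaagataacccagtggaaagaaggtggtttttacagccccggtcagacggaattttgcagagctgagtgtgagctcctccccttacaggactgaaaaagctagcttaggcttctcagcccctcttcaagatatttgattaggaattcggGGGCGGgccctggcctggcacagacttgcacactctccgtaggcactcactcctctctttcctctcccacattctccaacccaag
Bcan: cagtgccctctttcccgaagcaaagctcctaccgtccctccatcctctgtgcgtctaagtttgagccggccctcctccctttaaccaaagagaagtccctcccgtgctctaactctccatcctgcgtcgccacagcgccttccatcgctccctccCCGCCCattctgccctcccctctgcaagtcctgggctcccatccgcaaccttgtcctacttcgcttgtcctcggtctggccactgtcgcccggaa
The Ogn sequence holds 2 overlapping matches to the TATA box, 1 on each strand, which begin 224 and 222 bases before the start. The Fbn1 and Sparc sequences each hold 1 match to the CAGA box. In the Fmod sequence there is 1 CCAAT box and 1 GC box, and in that of Bcan 1 GC box. None of the 5 holds the AP-1 site. Over the 27457 promoters of the table, the same 250-base window holds the TATA box in 13.1%, the CCAAT box in 34.3%, the GC box in 32.4%, the AP-1 site in 6.36% and the CAGA box in 16.9%. Of 24 tested members with a single entry, the windows of 4 hold the TATA box, 7 the CCAAT box, 14 the GC box, 6 the CAGA box and 0 the AP-1 site. The GC content of these windows was 71.2% for Fbn1, 60.0% for Sparc, 46.0% for Ogn, 52.8% for Fmod and 61.2% for Bcan, beside a median of 52% over all promoters. These matches describe letters and were not tested against expression.

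Signals are given as log2 of the processed signal minus the 75th percentile of the same array, so that 0 is the 75th percentile. On 8 arrays, 85.78% to 91.06% of spots were well above background. The dimmest array was sham replicate 3, which came from another scan day, with 71.99% of its spots above background, and there the probes of 10 members were not well above background (Acan, Col8a1, Fbln1, Fbn1, Lama1, Loxl2, Lum, Thbs1, Thbs2 and Tnc). These 10 entered the test only through an MCAO group in which all arrays were above background. Arrays of 1 group correlated at an r of 0.9773 to 0.9943 over features. A scan identifier in the headers, taken as the slide, put the sham arrays on slides of their own, so slide and MCAO cannot be told apart. Vehicle replicates 1 and 3 shared a slide with salidroside replicates 2 and 3, and vehicle replicate 2 shared one with salidroside replicate 1. Markers of neurons, astrocytes and oligodendrocytes gave summed signals of at least 3050%, 8490% and 7200% of the 75th percentile on every array.

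Matrix genes stood higher in ischemic brain given vehicle than in sham brain, and most stood lower with salidroside than with vehicle, but no single member passed the adjusted test in either comparison. The median log2 change of the 33 members in vehicle against sham was 0.58, beside 0.09 over all 22783 features. Of the 33, 30 were positive, beside 13202 of the 22783 features. Among the 23 members above background on all arrays the median was 0.42, beside 0.01 over the features kept by that rule. Of these 23, 20 were positive. In salidroside against vehicle the median of the 33 members was -0.22, beside 0.06 over all features. Of the 33, 22 were negative, beside 9423 of the 22783 features. Without vehicle replicate 3, 17 of 33 were negative and the median was -0.01. With another background correction (normexp) 15 were negative. Both comparisons share the vehicle arrays, so the second is not independent of the first.

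**Figure D1:**
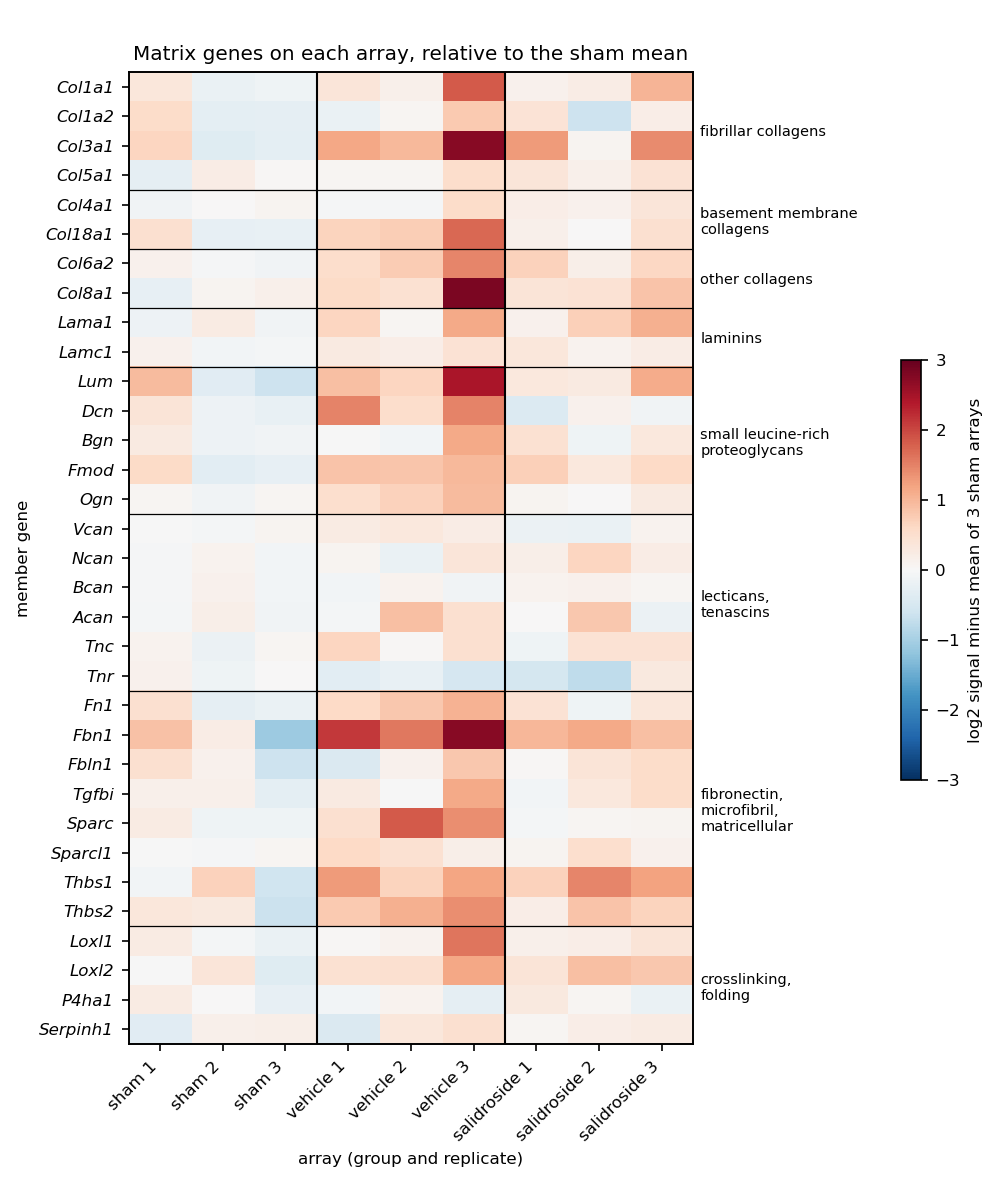
Log2 signal of 33 matrix genes (rows, grouped by class) on each of 9 arrays (columns), minus the mean of the 3 sham arrays of the same gene; red is above and blue below the sham mean. The column of vehicle replicate 3 is the darkest red, and that array holds the highest value of 22 of the 33 genes.

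By limma with Benjamini-Hochberg adjustment, 0 of 33 members were called at an adjusted p under 0.05 in vehicle against sham, where 2.8% of all features were called. At an unadjusted p under 0.05, 15 members were higher (45.5%), beside 15.8% of all features in that direction, and 0 were lower. The 3 vehicle arrays lay above all 3 sham arrays for 15 members (45.5%), beside 18.5% of features. These include Col8a1, Fbn1, Thbs2 and Loxl2, which entered the test only through the MCAO arrays, where they were high. Among the 23 members whose probes were well above background on all arrays, 9 were higher at an unadjusted p under 0.05 (39.1%), beside 13% of the features kept by the same rule. The other members of the 15 with such a p were Col8a1, Lum, Fbn1, Thbs1, Thbs2 and Loxl2. They were among the dim members that entered the test through the MCAO arrays, where they were high. The order of the members by p served only to choose which members are shown. The place of these dim members in it is not given as a result. Other analyses called between 0 and 10 members, the 10 when limma weighted arrays by quality.

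Vehicle replicate 3 stood apart from the other arrays. The median deviation of the members from their sham means was 1.04 on this array, 0.46 on vehicle replicate 1 and 0.34 on vehicle replicate 2. It was 0.14, -0.04 and -0.12 on the sham arrays and 0.19, 0.20 and 0.37 on the salidroside arrays. The median SD over the 3 vehicle arrays was 0.487 for members, beside 0.277 for all features, whereas in sham it was 0.243 and 0.274. Without vehicle replicate 3 the median change in vehicle against sham was 0.35, with 26 of 33 members positive and 12 at an unadjusted p under 0.05 (36.4%, beside 9.31% of features). The vehicle arrays left then lay above all sham arrays for the same 15 members, beside 20.5% of features. Leaving out an array cannot make groups that lay apart overlap, so this count could not fall. Members near 0 changed sign without it: Col1a2 went to -0.07, Col4a1 to -0.04, Bgn to -0.05, Ncan to -0.06, Fbln1 to -0.15 and Serpinh1 to -0.04, and Bcan and P4ha1 both went to 0.01.

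Among fibrillar collagens, the rope-forming collagens of scars, Col3a1 (the chain of type III collagen) had the largest difference. Its log2 signal was 1.05, 0.04 and 0.10 on sham replicates 1 to 3, 1.56, 1.38 and 3.12 on vehicle replicates 1 to 3, and 1.67, 0.47 and 1.82 on salidroside replicates 1 to 3. All vehicle arrays lay above all sham arrays, vehicle replicate 3 far above the rest, while the salidroside arrays overlapped both groups. The log2 change in vehicle against sham was 1.63 ± 0.54 (SE; a 3.09-fold difference, limma adjusted p 0.122), and 1.08 without vehicle replicate 3. Col1a1 and Col1a2, the chains of type I collagen, gave log2 changes of 0.80 and 0.21, and Col5a1, which nucleates collagen fibrils, gave 0.21. Those 3 genes overlapped between groups, and without vehicle replicate 3 their changes were 0.27, -0.07 and 0.06. A second probe of Col1a1 gave 0.66.

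Basement membrane collagens were represented by Col4a1, the main chain of vessel basement membranes, and Col18a1, a heparan sulfate proteoglycan and the precursor of endostatin. Col4a1 differed little, with a log2 change of 0.16 (95% interval -0.27 to 0.58); another probe of the gene gave 0.65. Col18a1 measured -1.97, -2.70 and -2.66 on the sham arrays, -1.78, -1.71 and -0.72 on the vehicle arrays, and -2.30, -2.43 and -1.96 on the salidroside arrays. The vehicle arrays were above every other array, by a narrow margin over sham replicate 1. The log2 change was 1.04 ± 0.32 (adjusted p 0.107) in vehicle against sham and 0.70 without vehicle replicate 3.

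Col6a2, a chain of the beaded-filament collagen VI that surrounds cells, read -0.08, -0.26 and -0.32 on the sham arrays, 0.31, 0.53 and 1.24 on the vehicle arrays, and 0.46, -0.04 and 0.41 on the salidroside arrays. All 6 MCAO arrays were above all sham arrays, and the MCAO groups overlapped. Vehicle exceeded sham by 0.91 ± 0.26 on the log2 scale (adjusted p 0.089). Col8a1, a short-chain collagen of vessel walls, was dim, at -6.66, -6.33 and -6.26 in sham, -5.84, -5.97 and -3.59 in vehicle, and -6.04, -5.98 and -5.55 with salidroside. Vehicle replicate 3 carried most of its change, which was 1.28 with this array, 0.51 without it and 0.04 with normexp correction.

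Laminins form the polymer layer of basement membranes. Lama1 was dim, at -6.47, -6.06 and -6.42 in sham, -5.67, -6.26 and -5.19 in vehicle, and -6.19, -5.60 and -5.26 with salidroside. The groups overlapped, and the log2 change of 0.61 in vehicle against sham was 0.35 without vehicle replicate 3. It turned to -0.24 with normexp background correction. Lamc1, the gamma chain shared by most laminins, gave 0.30, with vehicle arrays above sham arrays; a second probe gave -0.02.

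All 5 small leucine-rich proteoglycans, which bind collagen fibrils and set their thickness and spacing, had positive changes in vehicle against sham, with a median of 0.89, and 4 had an unadjusted p under 0.05 (Ogn, Dcn, Fmod and the dim Lum). Ogn (osteoglycin) read 0.90, 0.73 and 0.89 on the sham arrays, 1.35, 1.53 and 1.78 on the vehicle arrays, and 0.93, 0.84 and 1.12 on the salidroside arrays. The vehicle arrays stood above the other 6, which overlapped. Its log2 change in vehicle against sham was 0.71 ± 0.16 (a 1.64-fold difference, adjusted p 0.056), and 0.60 without vehicle replicate 3.

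Dcn (decorin, which also binds transforming growth factor beta) read -2.64, -3.18 and -3.26 in sham, -1.54, -2.51 and -1.54 in vehicle, and -3.44, -2.89 and -3.14 with salidroside. Every vehicle array was above every sham and salidroside array. Vehicle exceeded sham by 1.16 ± 0.30 (adjusted p 0.077), and by 1.00 without vehicle replicate 3. Fmod (fibromodulin) read 1.85, 0.96 and 1.02 in sham, 2.14, 2.10 and 2.24 in vehicle, and 1.98, 1.60 and 1.88 with salidroside. The vehicle arrays were close together and the sham arrays were not, with replicate 1 well above the other two. The change in Fmod was 0.89 ± 0.24 (adjusted p 0.086). Lum (lumican) was dim and uneven, at -4.45, -5.74 and -6.03 in sham, -4.51, -4.76 and -2.95 in vehicle, and -5.08, -5.13 and -4.30 with salidroside. Sham replicate 1 lay above both lower vehicle arrays, and the change of 1.33 was 0.77 without vehicle replicate 3 and 0.31 with normexp correction. Bgn (biglycan) gave 0.35, with overlapping arrays, and -0.05 without vehicle replicate 3; a second probe gave 0.06.

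**Figure D2:**
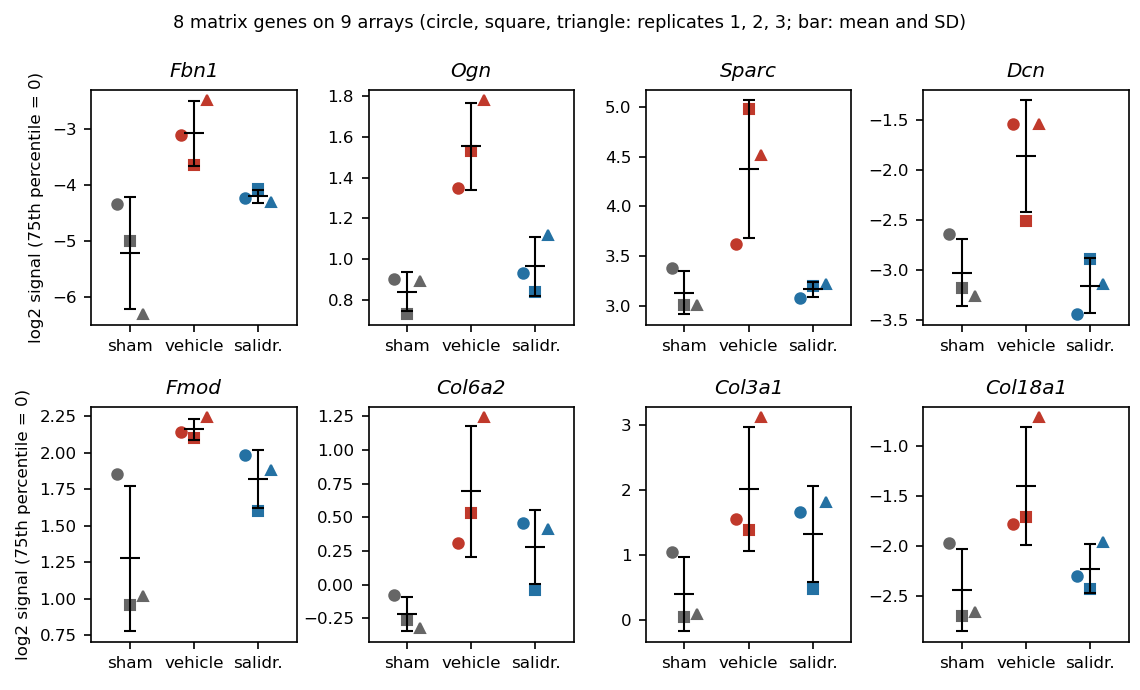
Log2 signal (75th percentile of each array = 0) of 8 matrix genes in sham, vehicle and salidroside arrays; symbols are replicates 1, 2 and 3, and bars give the mean and SD of 3 arrays. The vehicle arrays lie above all sham arrays in every panel; for Fbn1, Ogn, Sparc, Dcn, Fmod and Col18a1 they also lie above all salidroside arrays.

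Genes of the matrix between neurons had smaller changes. Across the 6 lecticans and tenascins the median log2 change was 0.17, and 0 had an unadjusted p under 0.05. Bcan (brevican), Ncan (neurocan) and Vcan (versican) gave -0.03, 0.08 and 0.26, with 95% intervals of -0.33 to 0.28, -0.36 to 0.52 and -0.06 to 0.58. The vehicle arrays of Vcan lay above all its sham arrays, and a second probe, dimmer, gave 0.60; with the mean of its probes Vcan had an unadjusted p under 0.05. A second probe of Bcan gave -0.34. Tnr (tenascin R of perineuronal nets) was the only member of the 33 whose vehicle arrays all lay below its sham arrays, beside 2318 of 22783 features. It read -0.74, -0.64 and -0.92 in vehicle, against -0.28, -0.55 and -0.41 in sham. Its change was -0.35 ± 0.26 (adjusted p 0.452). A second probe gave -0.47 but overlapped between groups, with vehicle replicate 3 above every sham array at -1.74. The largest change of the class was 0.43 for Acan (aggrecan), which was dim and overlapped between groups, and which turned to -0.26 with normexp correction. Tnc (tenascin C, known from reactive tissue) gave 0.38.

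Of 8 tested genes for fibronectin, microfibrils and matricellular proteins, all 8 had positive changes, with a median of 0.93, and 6 had an unadjusted p under 0.05. Of these 6, Fn1, Sparc and Sparcl1 were above background on all arrays, and Fbn1, Thbs1 and Thbs2 entered the test only through the MCAO arrays. Fbn1 (fibrillin 1, the scaffold of elastic microfibrils) read -4.34, -4.99 and -6.30 on the sham arrays, -3.10, -3.63 and -2.48 on the vehicle arrays, and -4.22, -4.07 and -4.30 on the salidroside arrays. The 3 groups did not overlap, with salidroside between sham and vehicle, but salidroside replicate 3 lay only just above sham replicate 1. Vehicle exceeded sham by 2.14 ± 0.47 on the log2 scale, a 4.41-fold difference (adjusted p 0.053). The sham value on replicate 3 was not well above background, and the change was 1.60 without that array and 1.85 without vehicle replicate 3. With normexp correction it was 0.81 (adjusted p 0.97).

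Sparc (osteonectin, a matricellular protein that binds collagen) read 3.38, 3.01 and 3.01 in sham, 3.62, 4.98 and 4.52 in vehicle, and 3.08, 3.20 and 3.22 with salidroside. Vehicle arrays lay above all others, replicate 2 highest, and sham and salidroside overlapped within a narrow range. The change in vehicle against sham was 1.24 ± 0.31, a 2.36-fold difference (adjusted p 0.072). Sparcl1, its close relative made in astrocytes, gave 0.42, also with all vehicle arrays above sham.

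Fn1 (fibronectin) read 0.41, -0.33 and -0.26 in sham, 0.53, 0.74 and 0.98 in vehicle, and 0.38, -0.18 and 0.27 with salidroside. The vehicle arrays were above the other 6, by little over sham replicate 1. Vehicle exceeded sham by 0.81 ± 0.25 (adjusted p 0.106); a second probe gave 0.17. Thbs2 (thrombospondin 2, which limits vessel growth) read -5.57, -5.61 and -6.54 in sham, -5.13, -4.84 and -4.52 in vehicle, and -5.71, -5.05 and -5.23 with salidroside. All vehicle arrays lay above sham arrays. Its change was 1.07 ± 0.31 (adjusted p 0.092), 0.76 without sham replicate 3, and -0.07 with normexp correction. Thbs1 gave 1.04 with overlapping arrays, Tgfbi 0.48 and Fbln1 0.17; without vehicle replicate 3 these last values were 0.14 and -0.15. Postn, which was not tested, was well above background on 4 of 9 arrays, and its highest value was -5.06 on vehicle replicate 3.

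The 4 tested enzymes and chaperones that crosslink or fold collagen had a median change of 0.36, and 1 had an unadjusted p under 0.05. That 1, Loxl2 (a lysyl oxidase that crosslinks collagen), had vehicle arrays above sham arrays and a change of 0.70 ± 0.26 (adjusted p 0.158), which was -0.32 with normexp correction. Loxl1 gave 0.58 with all arrays and 0.07 without vehicle replicate 3. P4ha1 (a prolyl hydroxylase of procollagen) gave -0.08 and Serpinh1 (the collagen chaperone HSP47) 0.13, with 95% intervals of -0.53 to 0.37 and -0.45 to 0.72.

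With salidroside against vehicle, limma called 0 of 33 members, in a comparison where 0.0132% of features (3) were called. At an unadjusted p under 0.05, 7 members were lower (Col18a1, Dcn, Ogn, Vcan, Fn1, Fbn1 and Sparc; 21.2%), beside 2.79% of all features, and 0 were higher. For 8 members (these 7 and Fmod) all salidroside arrays lay below all vehicle arrays, beside 6.21% of features. Without vehicle replicate 3 the median change of all 33 members was -0.01, and 3 had an unadjusted p under 0.05 (Dcn, Ogn and Sparc). The arrays of the same 8 lay apart then, beside 8.35% of features, but leaving out an array could not make them overlap. With normexp correction 15 of 33 members were negative and their median was 0.02, where the median of all features was 0.55; Dcn then gave -0.45 and Col18a1 -0.33.

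Dcn had the smallest p-value, with a log2 change of -1.29 ± 0.30 (a 2.45-fold difference, adjusted p 0.454); it was -1.48 within the slide that held 2 vehicle and 2 salidroside arrays, -0.93 within the other, and -1.13 without vehicle replicate 3. Salidroside arrays ran from -3.44 to -2.89, close to the sham range of -3.26 to -2.64. Sparc differed by -1.21 ± 0.31 (adjusted p 0.529), by -0.86 and -1.90 within the slides, and by -1.14 without vehicle replicate 3. Ogn differed by -0.59 ± 0.16 (adjusted p 0.569), by -0.58 and -0.60 within the slides, and by -0.47 without that array. Col18a1 differed by -0.83 ± 0.32 (adjusted p 0.791), by -0.94 and -0.60 within the slides, and by -0.49 without it. Fbn1 gave -1.13 ± 0.47, Fn1 -0.59 ± 0.25 and Vcan -0.34 ± 0.14. A second probe gave 0.08 for Fn1, the other direction, and -0.26 for Vcan. With the mean of all tested probes, limma gave an unadjusted p under 0.05 for 5 lower members, without Fn1 and Vcan, beside 2.71% of features.

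By class, the small leucine-rich proteoglycans were lower in all 5 members, with a median of -0.59. For Bgn this depended on the probe, with -0.13 from the brightest and 0.33 from the second. The fibronectin and matricellular genes had a median of -0.36, with 6 of 8 negative. Lecticans and tenascins had a median of -0.06 and the crosslinking and folding genes 0.02. Fibrillar collagens had a median of -0.27, but Col3a1, Col1a1 and Col1a2 overlapped between groups, at -0.70, -0.33 and -0.21, with 95% intervals of -1.94 to 0.53, -1.35 to 0.68 and -1.06 to 0.64. Within the larger slide the median of all members was -0.28, with 22 negative. In the smaller slide, with 1 array of each group, it was -0.09, with 21 negative. Over all features the medians were 0.09 and -0.03, and 38.9% and 53.3% were negative, so the members' median in the smaller slide lay close to that of all features. In both slides 16 members were negative (48.5%), beside 24.8% of features.

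**Figure D3:**
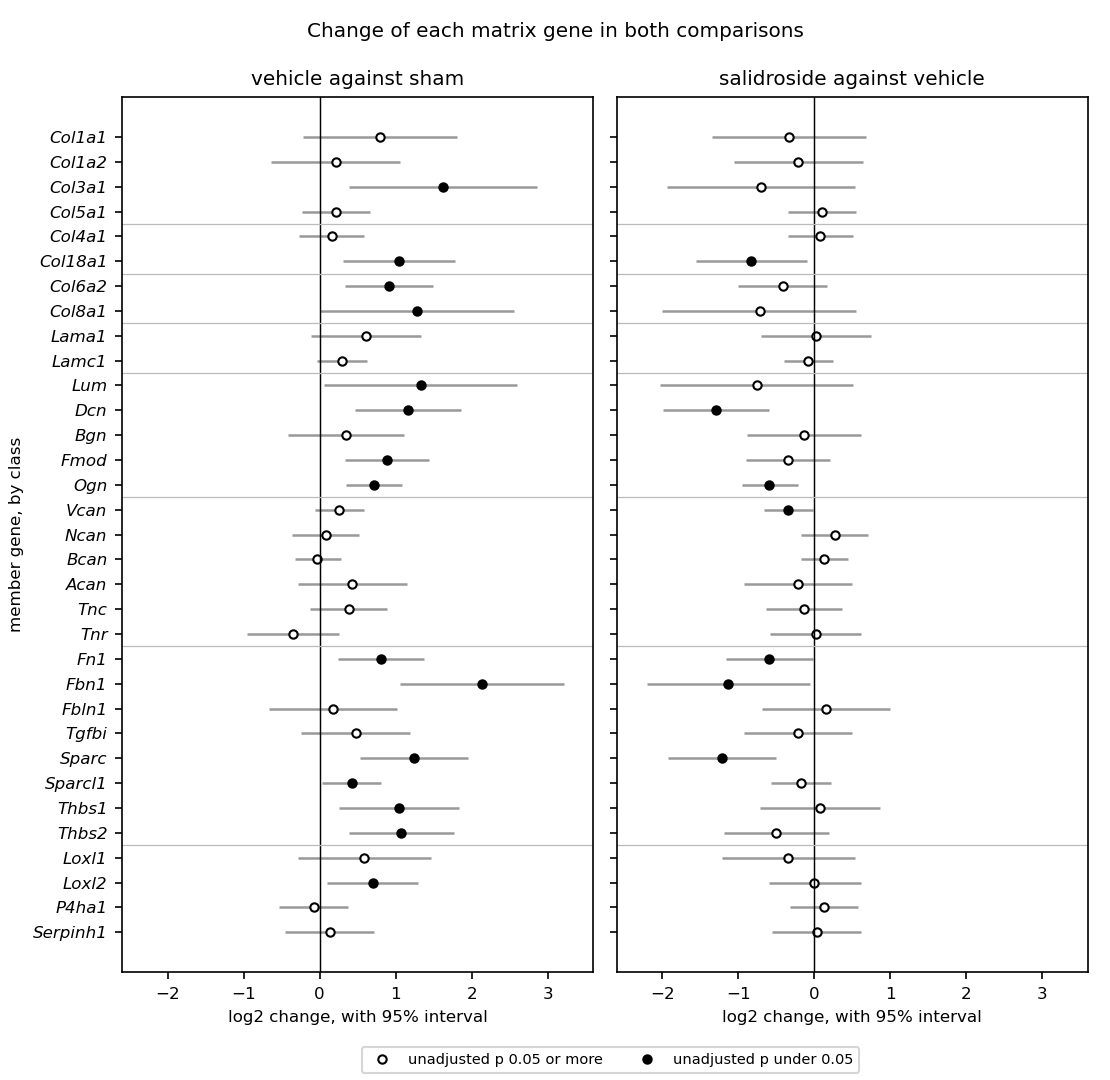
Log2 change of each member (points) with its 95% interval (lines) in vehicle against sham and in salidroside against vehicle, from the model over 9 arrays; filled points have an unadjusted p under 0.05. There are 15 filled points to the right of 0 in the first panel and 7 to the left of 0 in the second.

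In salidroside against sham, which shares its arrays with the comparisons above, 30 of 33 members had positive changes, and the median was 0.25 beside 0.12 over all features. Limma called 0 of 33, where 1.24% of features were called, and 2 were higher at an unadjusted p under 0.05 (Thbs1 and Loxl2), a share of 6.06% beside 10.9% of features. Both were not well above background on sham replicate 3 and entered the test only through the MCAO arrays. The salidroside arrays lay above all sham arrays for 8 members (24.2%), beside 13.4% of features. Among these 8, Col8a1, Fbn1, Thbs1 and Loxl2 entered the test only through the MCAO arrays. Thbs1, a matricellular activator of transforming growth factor beta, read -6.56, -5.80 and -7.08 in sham, -5.20, -5.82 and -5.30 in vehicle, and -5.78, -5.02 and -5.28 with salidroside. Its salidroside arrays lay above all sham arrays, by a narrow margin, and its change of 1.12 ± 0.35 (adjusted p 0.161) was close to the 1.04 of vehicle against sham. Sparc, Dcn and Ogn gave 0.03, -0.13 and 0.13, with 95% intervals of -0.68 to 0.74, -0.83 to 0.56 and -0.24 to 0.49.

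Taking both MCAO groups together against sham, the members had a median of 0.41 beside 0.10 over all features, and 31 of 33 were positive. Limma called 0 of 33, where 3.53% of features were called. At an unadjusted p under 0.05, 10 members were higher (30.3%), beside 16.0% of features. For 5 members (15.2%) all MCAO arrays lay above all sham arrays, beside 9.29% of features. Col8a1, Fbn1 and Loxl2 of the 5 entered the test only through the MCAO arrays, as did Fbn1, Thbs1, Thbs2 and Loxl2 of the 10. Fbn1 gave 1.58 ± 0.41 (adjusted p 0.068) and Thbs1 1.08 ± 0.30 (adjusted p 0.078); both entered the test only through the MCAO arrays, where they were high.

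Of 9 tested cell-surface receptors of the matrix, limma called 2 in vehicle against sham, both higher, where 2.8% of all features were called. It called 0 in salidroside against vehicle. Their median log2 change was 0.82 in vehicle against sham, -0.55 in salidroside against vehicle and 0.10 in salidroside against sham. Itgb5, an integrin subunit of vitronectin receptors, rose by 1.26 on the log2 scale (adjusted p 0.033), from -2.70, -2.41 and -2.63 in sham to -1.73, -1.19 and -1.04 in vehicle, and read -2.19, -1.61 and -1.83 with salidroside. All 6 MCAO arrays lay above all sham arrays, and salidroside replicate 2 lay above vehicle replicate 1. Cd44, the hyaluronan receptor, rose by 1.64 (adjusted p 0.036), from -2.33, -2.47 and -2.61 to -0.72, -1.27 and -0.50, and read -2.91, -2.46 and -1.73 with salidroside. Its vehicle arrays stood above the other 6, but another probe of Cd44 gave -0.80, so the probes disagree in direction. With 1 array left out in turn, each of these 2 calls held in 3 of 9 fits: that of Itgb5 without vehicle replicate 1, salidroside replicate 1 or salidroside replicate 2, and that of Cd44 without vehicle replicate 2, salidroside replicate 1 or salidroside replicate 3. In the other 6 the adjusted p reached up to 0.136 for Itgb5 and 0.15 for Cd44. With slide as a random block neither was called (adjusted p 0.0562 for Itgb5 and 0.0516 for Cd44). With a replicate block Cd44 was not called (0.066), nor with the mean of its probes, which gave 0.48 (0.311). Normexp correction gave 0.97 (0.326) for Itgb5 and 1.24 (0.266) for Cd44. Over 22 alternatives the call held in 12 for Itgb5 and in 11 for Cd44.

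Of 12 tested genes of the transforming growth factor beta pathway, limma called 0 in vehicle against sham; the median change was 0.52 and 2 had an unadjusted p under 0.05, both higher, close to the 15.8% of all features. These were Smad4, the shared signal transducer, at 0.52 (adjusted p 0.148), and Tgfb1, the ligand, at 1.06 (adjusted p 0.171). Of 9 other collagen processing genes 0 were called and 2 were higher at an unadjusted p under 0.05, beside 15.8% of all features. These were the lysyl hydroxylases Plod1 at 0.59 and Plod3 at 0.45 (adjusted p 0.111 and 0.171). Of 9 hyaluronan and chondroitin sulfate genes 0 were called, and 2 had an unadjusted p under 0.05 in opposite directions. Hapln1, the link protein of hyaluronan matrices, gave -0.75 with one probe and 0.44 with another, and Ptprz1, a receptor phosphatase that carries chondroitin sulfate, gave 0.61. In salidroside against vehicle limma called 0 genes of these 3 lists.

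Markers of other cell types moved with the arrays. The 7 choroid plexus markers tested had median deviations from their sham means of 1.41, 0.25 and 3.25 on the vehicle arrays and -0.26, 0.73 and 2.29 on the salidroside arrays. Their summed signal was 52.7% to 83.7% of the 75th percentile in sham, 2010%, 113% and 9130% in vehicle, and 44.5%, 109% and 8670% with salidroside. Ttr (transthyretin) read 4.28 on vehicle replicate 1, 6.43 on vehicle replicate 3 and 6.42 on salidroside replicate 3, and between -3.46 and -1.31 on the other 6 arrays. The median deviations of the members on the same arrays were 0.46, 0.34 and 1.04 with vehicle and 0.19, 0.20 and 0.37 with salidroside, so replicate 3 was the highest array of each MCAO group for both lists.

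Summed over the 7 tested fibroblast and leptomeningeal markers, the signal was 1960%, 1200% and 1290% of the 75th percentile in sham, 1320%, 2190% and 2700% in vehicle, and 1920%, 1460% and 2040% with salidroside. The ranges overlapped, and vehicle replicate 3 was highest in summed signal. By median deviation from the sham means, vehicle replicate 2 was highest at 0.73, with 0.59 on vehicle replicate 3 and 0.11 on vehicle replicate 1. Their median log2 change was 0.46 in vehicle against sham, with 6 of 7 positive, and -0.38 in salidroside against vehicle, with 6 of 7 negative, the same directions as the medians of the matrix genes. In vehicle against sham 2 of 7 were higher at an unadjusted p under 0.05, beside 15.8% of all features. These were Slc6a13, a transporter of meningeal fibroblasts, at 0.89 (adjusted p 0.135) and Mgp (matrix Gla protein) at 0.95 (adjusted p 0.153). Slc6a13 gave -0.98 in salidroside against vehicle (adjusted p 0.673). Igf2, a growth factor, and Crabp2, a retinoic acid carrier, gave 0.47 and 0.46 in vehicle against sham, and Islr gave -0.06. Foxc1 and Foxd1, 2 defining transcription factors of the list, were not among the tested features. Among the sham arrays, replicate 1 was highest for 6 of these 7 markers, all but Islr, and for 20 of 33 matrix genes.

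Macrophage and microglia markers, 8 of 8 tested, had median deviations of 0.96, 0.67 and 1.42 on the vehicle arrays and 0.08, 0.24 and 1.18 on the salidroside arrays. Their summed signal was highest on salidroside replicate 3, at 1220% of the 75th percentile, beside 1140% on vehicle replicate 3. Their median log2 change was 1.03 in vehicle against sham, with 7 of 8 positive, and -0.61 in salidroside against vehicle, with 6 of 8 negative. In vehicle against sham, where 2.8% of all features were called, limma called 2 of the 8. These were Cd14, an endotoxin co-receptor, at 1.81 (adjusted p 0.029) and Cd163, a scavenger receptor of macrophages, at 2.78 (adjusted p 0.021). Cd163 was well above background on 1 of 3 sham arrays and gave 0.39 with normexp correction. Cx3cr1, the fractalkine receptor of microglia, went the other way, at -1.28 (adjusted p 0.089) and, with salidroside against vehicle, 1.09 (adjusted p 0.705). The 8 endothelial markers had a median of -0.07, with 3 positive and 5 negative. Limma called Kdr, a receptor for vascular endothelial growth factor, at -0.71 (adjusted p 0.047), whereas Flt1, Cldn5 and Esam gave 0.37, 0.36 and 0.24. With 1 array left out in turn these calls held in 4 of 9 fits for Cd14, 5 of 9 for Cd163 and 1 of 9 (without salidroside replicate 1) for Kdr. With slide as a random block Cd14 and Kdr were not called (adjusted p 0.0501 and 0.0694), nor with a replicate block (0.0553 and 0.065); Cd163 was called in both (0.0397 and 0.0291). Neuron markers had a median change of -0.49 over 5 genes, mural cell markers 0.28 over 9, astrocyte markers 0.29 over 7 and oligodendrocyte markers -0.10 over 5, with 0 called in these 4 lists. The part of any of these cell types in the values of the matrix genes was not tested.

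**Figure D4:**
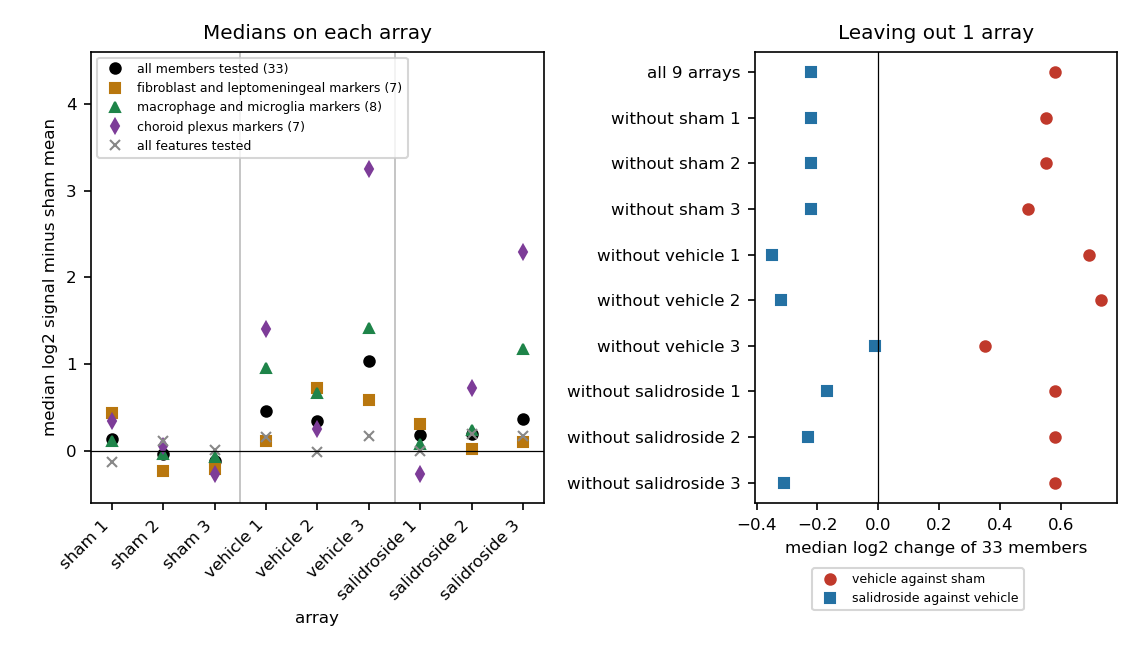
Left, median log2 signal minus the sham mean on each array for the 33 matrix genes, for 3 marker lists (number of genes in brackets) and for all features; right, median log2 change of the 33 matrix genes in both comparisons with all 9 arrays and with each array left out. Vehicle replicate 3 is the highest array for the matrix genes, the choroid plexus markers and the macrophage markers. For the fibroblast markers vehicle replicate 2 is the highest. Leaving out vehicle replicate 3 brings the medians of the matrix genes to 0.35 and -0.01.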

How the data were processed

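Total RNA of 9 rat brain samples was labelled with Cy3 and hybridised to 1-colour Agilent arrays. Per the file headers, the authors read the spots in Agilent Feature Extraction, version 11.0.1.1, under protocol GE1_1100_Jul11 (array design on rn4), and the deposited signal columns hold intensity on a linear scale, background-subtracted within each array and not normalized between arrays. A deposited table of log2 values of the same arrays served as an alternative; its columns share a maximum of 17.91, and it is not stated how they were made.

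Analysis used R 4.3.3 and limma 3.58.1. The processed signal was taken to log2, the 75th percentile of each array was subtracted, and outlier and control spots were left out. Probes entered the test where all arrays of 1 or more groups were well above background (25576 probes). Probes were named from their transcript accession through a RefSeq table (GRCr8, names only), 18005 of 30367 with a symbol, and the brightest probe stood for a gene (22783 features). All 9 arrays were fitted in 1 model of 3 groups with empirical Bayes, with 6 residual and 2.51 prior degrees of freedom, and p-values were adjusted over all features. The number of arrays limits the precision. In simulated data for vehicle against sham, 37.3%, 74.6% and 92.4% of 67, 67 and 66 features with log2 changes of 1, 2 and 3 were recovered.

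The members, their classes and the other gene lists were chosen with earlier results of these data known. Values on every array are given for the 8 members with the smallest p in vehicle against sham and the 4 in salidroside against vehicle, and the member with the largest change in each class is named, with further members where a comparison turns on them. Of pathway lists, called genes or else the 2 smallest p-values are named; of marker lists, called genes, some of the brightest and others chosen after their values were seen. Alternatives were another background correction, scaling, filter and probe rule, the deposited table, slide or replicate as a block, array weights, a mean-variance trend and leaving out each array. Normexp correction, planned on the mean spot signal, was run on the median one; the mean was not used here. Counts at an unadjusted p and of arrays that do not overlap were recomputed after seeing the data.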

Additional observations from a re-analysis of the deposited data

How the results depend on the processing

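Each comparison was recomputed under the alternatives. In vehicle against sham, where limma called 0 of 33 members, it called 3 with quantile normalization, 1 with median scaling, 1 of 23 among probes above background on all arrays, 3 of 23 in the deposited value table, 10 with array weights and 3 with a mean-variance trend. Leaving out 1 array gave 0 to 2 (without sham replicate 1 Fbn1 and Fmod, without vehicle replicate 1 Sparc, without vehicle replicate 2 Dcn) and a median change of 0.35 to 0.73. With normexp correction the median was 0.16, beside -0.14 for all features, and 23 of 33 members were positive, where 30 were in the main fit. Among the named members 4 dim ones turned: Thbs2 to -0.07, Lama1 to -0.24, Acan to -0.26 and Loxl2 to -0.32. The cause was not tested. In salidroside against vehicle 0 members were called in every alternative, and the median ran from -0.35 to -0.01 with 1 array left out, nearest 0 without vehicle replicate 3. In salidroside against sham the median was 0.47 with normexp correction, where all features had 0.45, array weights called 1 member (Fmod), and leaving out 1 array gave 0 calls and a median of 0.18 to 0.33. For both MCAO groups against sham, quantile normalization called 1 member, array weights 13, and leaving out 1 array 0 to 1, with a median of 0.36 to 0.49. Of 416 recomputed changes of named members, 412 kept their direction and 25 became called. The 4 that turned were those with normexp correction. Several alternatives cannot alter a log2 change, such as a replicate block, a mean-variance trend or leaving out an array of a group not compared. Many of the 416 therefore could not turn. The named members were also chosen for small p-values or large changes, so they do not stand for the other members. Without vehicle replicate 3, 26 of 33 members were positive in vehicle against sham, beside 30 with all arrays.

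The labels name no pairing of the arrays. Deviations of same-numbered arrays correlated at -0.187 to 0.255, and those of differently numbered arrays at -0.427 to 0.466. With so few arrays this cannot show whether they were paired. With a replicate block the median in vehicle against sham was 0.58 and 0 members were called. With slide as a random block (consensus correlation 0.159) it was 0.57, with 0 called. Dim probes limit the values of 10 members, which were not well above background on sham replicate 3.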
